A study of Mus musculus with 4 samples.

Results

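The genes described here are 55 genes of chromosome segregation: those of the kinetochore, the spindle checkpoint, the chromosomal passenger complex, condensin and the kinases and cyclins that drive mitosis. They were chosen by name from a list of what their products do, with earlier results of these data known. All 55 are rows of a deposited table of 44788 genes. Kinesins other than the kinetochore motor gene Cenpe, and the centrosomal Cep genes, were left out of the list. The table holds RNA sequencing read counts of cultured bone marrow stromal cells, the adherent cells of marrow that can form bone and fat, from C57BL/6J mice in which both copies of Setd2 are flanked by loxP sites (Setd2 fl/fl). Setd2 encodes a histone methyltransferase that adds methyl groups to a lysine of histone H3. The cells, of passage 2, received a lentivirus with GFP, the control labelled as wild type, or with Cre recombinase, which cuts out the floxed part of Setd2 and is labelled as knockout. Both groups were kept in puromycin at 2 µg/ml for 4 days, and each group has 2 libraries. The GFP cells carry the floxed alleles too, so the groups differ in the viral gene as well as in Setd2. Nothing in the labels tells if replicate libraries are different mice or cultures, so the p-values rest on a spread between libraries that could be purely technical.

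When a cell enters mitosis, Cdk1 bound to cyclin A or B is switched on by Cdc25 phosphatases, and condensin folds the chromosomes. At each centromere an inner kinetochore, built on the histone variant Cenpa, carries an outer kinetochore whose NDC80 complex grips spindle microtubules. Until every kinetochore is attached, the checkpoint proteins Bub1, Bub1b, Bub3, Mad2l1 and Ttk hold back Cdc20, the activator of the anaphase-promoting complex, which would otherwise mark securin and cyclin B for destruction. Transcripts of many of these genes rise together late in the cell cycle. Their promoters often hold pairs of CCAAT boxes, bound by NF-Y, and a cell-cycle genes homology region (CHR), bound by the DREAM and MuvB complexes.

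Promoter sequences show how widely these elements occur in the set. RefSeq windows on GRCm38.p6, from 250 bases before to 50 after each annotated start, were matched for 47 of the 55 genes, with 52 windows. A CCAAT box (CCAAT or its reverse complement ATTGG) was in 78.8% of these windows, against 37.4% of all 32851 windows of the same length. A CHR, searched as TTTGAA, its reverse complement TTCAAA or the palindrome TTCGAA, was in 67.3%, against 19.2% of all windows. Both elements were in 63.5% of the windows and in 7.52% of all windows. The motifs can share an end base, in which case each is counted, and a gene with several annotated starts gives several windows. At least 2 CCAAT boxes were in 48.1% of the windows, against 11.7% of all. The windows of genes that passed the test described next and of those that did not held both elements at 66.7% (14 of 21) and 61.3% (19 of 31). These matches describe letters, not occupied sites.

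The windows of 6 genes that fell are shown, chosen after their values were seen, to set promoters with many elements beside a promoter with none. Capitals mark each CCAAT box and CHR, and each line runs 5′ to 3′ along the gene's own strand.
Cenpf, chr1:189688037-189688336, minus strand: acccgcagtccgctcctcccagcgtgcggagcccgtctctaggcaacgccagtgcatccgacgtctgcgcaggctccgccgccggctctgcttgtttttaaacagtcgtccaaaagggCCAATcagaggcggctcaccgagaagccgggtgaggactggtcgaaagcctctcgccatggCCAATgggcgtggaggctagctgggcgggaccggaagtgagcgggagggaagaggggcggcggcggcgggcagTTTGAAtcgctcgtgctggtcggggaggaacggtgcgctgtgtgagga
Aspm, chr1:139454523-139454822, plus strand: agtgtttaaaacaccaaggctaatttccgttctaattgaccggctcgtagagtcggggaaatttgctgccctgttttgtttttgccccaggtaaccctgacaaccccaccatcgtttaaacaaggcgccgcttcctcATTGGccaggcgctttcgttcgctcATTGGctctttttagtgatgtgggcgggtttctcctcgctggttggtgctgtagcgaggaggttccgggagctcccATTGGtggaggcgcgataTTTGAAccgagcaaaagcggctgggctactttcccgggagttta
Hmmr, chr11:40733388-40733687, minus strand: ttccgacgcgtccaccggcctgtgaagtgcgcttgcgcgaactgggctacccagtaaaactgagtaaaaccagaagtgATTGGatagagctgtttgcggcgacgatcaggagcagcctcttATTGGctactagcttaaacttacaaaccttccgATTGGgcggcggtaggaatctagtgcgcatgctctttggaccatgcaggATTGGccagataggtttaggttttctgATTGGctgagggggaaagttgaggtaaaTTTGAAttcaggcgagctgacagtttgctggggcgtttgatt
Ccnb2, chr9:70421505-70421804, minus strand: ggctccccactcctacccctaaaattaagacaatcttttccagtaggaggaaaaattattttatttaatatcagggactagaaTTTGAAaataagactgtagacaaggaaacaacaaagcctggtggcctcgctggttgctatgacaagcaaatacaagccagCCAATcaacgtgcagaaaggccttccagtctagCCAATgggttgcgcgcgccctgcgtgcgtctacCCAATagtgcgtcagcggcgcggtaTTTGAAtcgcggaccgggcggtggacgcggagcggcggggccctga
Cdc20, chr4:118437294-118437593, minus strand: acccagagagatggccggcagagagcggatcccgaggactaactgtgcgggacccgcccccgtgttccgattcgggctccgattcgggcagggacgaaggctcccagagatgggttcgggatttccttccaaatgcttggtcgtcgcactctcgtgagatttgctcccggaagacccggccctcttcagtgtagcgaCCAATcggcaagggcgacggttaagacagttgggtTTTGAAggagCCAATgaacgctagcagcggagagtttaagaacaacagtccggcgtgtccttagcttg
Nuf2, chr1:169531415-169531714, minus strand: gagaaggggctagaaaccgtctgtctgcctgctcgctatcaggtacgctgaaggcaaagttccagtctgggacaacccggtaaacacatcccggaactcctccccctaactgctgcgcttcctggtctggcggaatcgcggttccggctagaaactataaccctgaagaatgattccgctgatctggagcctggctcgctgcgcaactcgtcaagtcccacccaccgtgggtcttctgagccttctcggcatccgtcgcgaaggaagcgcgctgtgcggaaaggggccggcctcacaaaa

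In the Ccnb2 window 3 CCAAT boxes start at positions -87, -54 and -21 from the annotated start, and TTTGAA starts at 5 and at -167. Hmmr has 5 boxes and a TTTGAA at 9, Aspm 3 boxes and a TTTGAA at 7, and Cenpf 2 boxes and a TTTGAA at 3. In the Cdc20 window the TTTGAA lies upstream, at -18, between boxes at -53 and -8. The Nuf2 window holds neither element, which says only that these letters are not in these 300 bases.

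The libraries held between 12371994 and 14315903 counts. Levels are given as CPM, counts divided by library size in standard units, after adjustment by TMM, which aligns the libraries on the bulk of their genes. Setd2 had 107 and 106 CPM with GFP and 38.1 and 32.3 CPM with Cre, a log2 fold change of -1.60 (edgeR adjusted p = 3.65e-15), and lower in both Cre libraries. Without GFP replicate 2 the value was -1.59, with an adjusted p of 0.124. Ribosomal 18S RNA (Rn18s-rs5) made up 7.45% of all counts in GFP replicate 2, and 1.21% to 2.07% elsewhere. Stromal markers were high in every library, led by the fibronectin gene Fn1 with a mean of 20059 CPM with GFP and 21549 CPM with Cre. Their summed level was 36900 and 37384 CPM with GFP and 43294 and 43532 CPM with Cre. Of the 15 stromal markers 4 rose (background 3.74%), the collagen genes Col1a1 (0.52 as log2 fold change), Col1a2 (0.29) and Col3a1 (0.33) and the surface marker gene Thy1 (0.61). The chemokine gene Cxcl12 (-0.28), named after its value was seen, was the 1 that fell (background 3.22%). Macrophage markers were present too: their summed level was 2267 and 2356 CPM with GFP and 2675 and 2679 CPM with Cre. Of the 15 tested, 5 rose (background 3.74%), among them Lyz2 (mean 1398 CPM with GFP and 1691 CPM with Cre). Emr1 fell (background 3.22%). DESeq2 called 3 of each list higher (background 2.35%) and 1 of each lower (background 1.2%). At an unadjusted p under 0.05 in edgeR's test, 9 of 15 macrophage markers were higher and 1 lower. Among stromal markers 4 of 15 were higher and 1 lower (background 10.6% higher and 10.4% lower). Without GFP replicate 2 the median log2 fold change was 0.17 for macrophage and 0.018 for stromal markers. Without GFP replicate 1 it was 0.10 and 0.079, against 0.18 and 0.10 in all libraries. Neither list kept its calls in these fits, which called few or none of all tested genes. Of 8 endothelial markers 4 passed the low-count filter, with a summed level for the list of 10.4 and 9.96 CPM with GFP and 8.24 and 7.74 CPM with Cre, and Cldn5 was at 0 in every library. Among 13 lymphoid, erythroid and granulocyte markers 1, S100a8, passed it, and Cd3e, Ms4a1, Hba-a1, Hbb-bs, Elane and S100a9 had 0 counts in every library. Whether these marker levels play a part in the results that follow was not tested.

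The mitotic genes were lower in the Cre libraries. Of the 55 genes, all of which passed the low-count filter, 24 fell and 0 rose at an adjusted p of 0.05 in edgeR's quasi-likelihood test with Benjamini-Hochberg adjustment over all 14483 tested genes. Of all tested genes 3.22% were called lower and 3.74% higher. At an unadjusted p under 0.05, 37 of the 55 were lower, against 10.4% of all tested genes, and 0 were higher, against 10.6%. DESeq2 also called 0 higher (background 2.35%). Among the 24, the change ran from -14.3% for Tpx2 to -37.8% for Aspm, or from -0.22 to -0.68 as log2 fold changes of Cre over GFP. In 53 of the 55 genes the log2 fold change was below 0, against 51.1% of all tested genes, and the median was -0.29, against -0.0045 over all tested genes. Because the 55 were chosen with earlier results of these data known, these comparisons with all tested genes are descriptions. In bulk RNA, fewer dividing cells and less of these transcripts per dividing cell cannot be told apart.

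Summed over the 55 genes, the level was 1829 and 1856 CPM in the GFP libraries and 1532 and 1479 CPM in the Cre libraries, a difference of -18.3% between the means. Both Cre libraries lay under both GFP libraries. This gives 1843 ± 19.3 CPM with GFP and 1505 ± 37.5 CPM with Cre (mean ± SD, n = 2 each). Gene by gene, the groups did not overlap in 45 of the 55 genes, all lower in Cre, against 25.5% of all tested genes lower without overlap and 24.5% higher. Between replicates of a group the values were near even: GFP replicate 2 was above GFP replicate 1 in 27 genes and below in 28, with a median log2 ratio of -0.0025. Between the Cre libraries the median was -0.028, with replicate 2 lower in 33 genes.

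**Figure D1:**
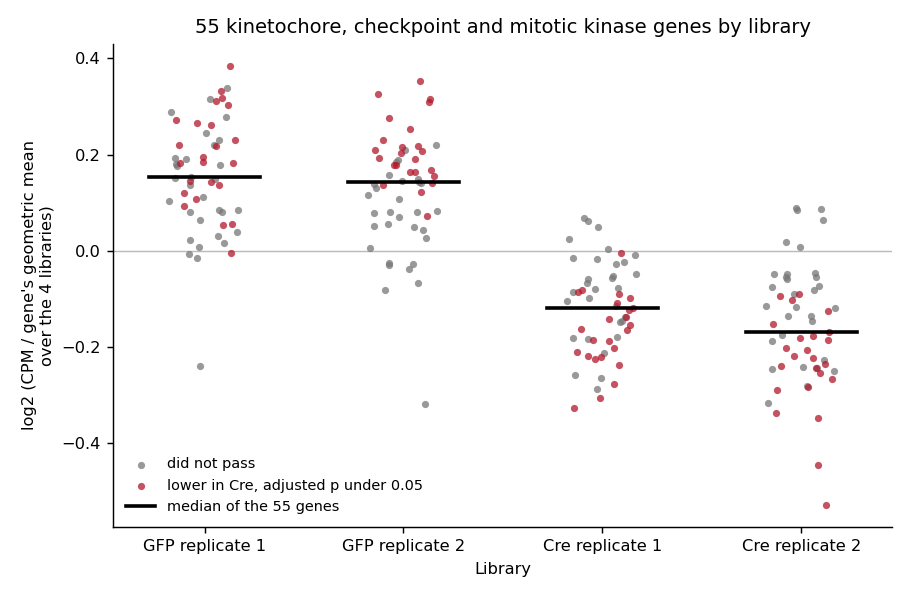
Level of each of the 55 genes in each library, as log2 of its CPM over its geometric mean across the 4 libraries; each point is a gene, red where it passed an adjusted p of 0.05, and the black bar is the median. The medians are 0.15 and 0.14 in the GFP libraries and -0.12 and -0.17 in the Cre libraries.

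Leaving out a GFP library kept the size of the shift and ended every call. Without GFP replicate 2, the library with the high 18S share, the median log2 fold change was -0.31 and 54 genes were below 0. Then 0 of the 55 passed edgeR's adjusted p, as did 0% of all tested genes, while 26 of the 55 were lower at an unadjusted p under 0.05, against 6.4% of all tested genes. Without GFP replicate 1 the median was -0.28, again 0 of the 55 passed (background 0.0535%), and 27 were lower at an unadjusted p under 0.05, against 7.04%. This loss applies to each gene called as fallen in the following paragraphs. DESeq2 gave an adjusted p to 52 of the 55 genes, not to Cenpk, Cenpm and Spc24, and called 7 lower (background 1.2%). Scaling by library size alone left 9 (background 1.26%). The 7 called by edgeR, by DESeq2 and with library size alone were Cenpf, Top2a, Smc4, Hmmr, Aspm, Prc1 and Anln.

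**Figure D2:**
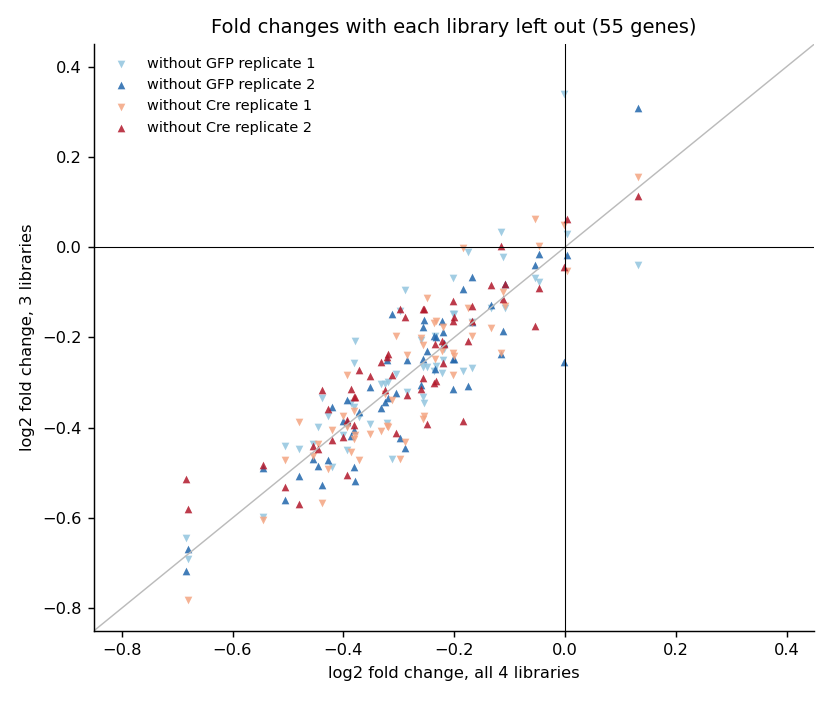
Log2 fold change of each of the 55 genes with 3 libraries (vertical axis) against that with all 4 (horizontal axis); colour and shape give the library left out, and the grey line marks equal values. The medians with a library left out lie between -0.31 and -0.28, against -0.29 with all 4.

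The inner kinetochore binds centromeric chromatin, and its genes had mean levels from 2.62 to 17.8 CPM, not divided by length. Of its 7 genes 0 passed edgeR's test (background 3.22% lower and 3.74% higher). In 6 of the 7 the log2 fold change was below 0 (background 51.1%), and the median of the group was -0.25. Cenpa, the histone H3 variant that marks centromeres, had 20.2 and 19.5 CPM with GFP and 16.7 and 14.9 CPM with Cre. The groups do not overlap, and its value was -0.33 (standard error 0.11, edgeR adjusted p = 0.0601). Cenpi had 12.1 and 8.005 CPM with GFP and 9.83 and 10.4 CPM with Cre, so the GFP libraries enclose the Cre libraries. Its fold change was -0.0015, with a 95% interval from -0.31 to 0.31. Cenpm had the lowest mean CPM of the 55, with 29 and 33 counts with GFP and 39 and 40 with Cre. Its log2 fold change was 0.13, with an interval from -0.37 to 0.63. Cenph (-0.12), Cenpk (-0.29), Cenpl (-0.26) and Cenpn (-0.25), all of the constitutive centromere network on which the outer layer is built, complete the group. Standard errors of the group were between 0.11 and 0.24. At an unadjusted p under 0.05 in edgeR's test, 1 of the 7, Cenpa, was lower (background 10.4%). DESeq2 called 0, and gave no adjusted p to Cenpk and Cenpm.

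Outer kinetochore genes fell in 4 of 7 cases by edgeR's adjusted p (background 3.22%). In all 7 both Cre libraries lay below both GFP libraries, as in 25.5% of all tested genes. Cenpf, whose large coiled-coil product joins the kinetochore late in G2, had 34.9 and 35.3 CPM with GFP and 23.5 and 20.3 CPM with Cre. It lies on chromosome 1 from 189640606 to 189688107 (GRCm38), and its log2 fold change was -0.68 (standard error 0.09, edgeR adjusted p = 8.70e-06). Cenpe, a kinetochore motor that moves chromosomes to the spindle equator, had 51.3 and 51.7 CPM with GFP and 42.6 and 37.0 CPM with Cre. Here the Cre libraries differ more from each other than the GFP libraries do, and the fall of 0.37 on the log2 scale remains larger than that spread. Knstrn, a spindle and kinetochore adaptor that aids sister separation, had 17.96 and 16.8 CPM with GFP and 13.6 and 12.3 CPM with Cre (-0.43).

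The NDC80 complex is a rod of 4 proteins in equal number, and its transcripts differed in level and in test result. Nuf2 had 19.6 and 18.5 CPM with GFP and 13.98 and 14.03 CPM with Cre, a log2 fold change of -0.45 (standard error 0.11, edgeR adjusted p = 0.01002). Its partner Ndc80, which with Nuf2 makes the microtubule-binding end, had 13.1 and 12.7 CPM with GFP and 9.69 and 11.2 CPM with Cre (-0.30, adjusted p = 0.159). At the inner end Spc24 was at 5.33 and 5.19 CPM with GFP and 3.88 and 3.80 CPM with Cre, while Spc25 was at 15.5 and 15.6 against 14.7 and 13.7 CPM. The fitted values were -0.45 for Spc24 (adjusted p = 0.149) and -0.13 for Spc25 (adjusted p = 0.555), and their 95% intervals, -0.84 to -0.07 and -0.37 to 0.10, overlap. Per kilobase of the longest annotated transcript the mean levels were 7.95 CPM for Spc25, 4.25 for Nuf2, 3.03 for Ndc80 and 2.68 for Spc24. The row 2700099C18Rik, named as an Ndc80 pseudogene in the table, had 23 to 39 counts per library beside 140 to 172 for Ndc80. How reads that match both were assigned is not known, so the Ndc80 count is uncertain.

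Among the spindle checkpoint genes 1 of 5 fell (background 3.22%). Bub1, a kinase that docks the checkpoint proteins on the kinetochore, had 24.96 and 21.8 CPM with GFP and 18.8 and 15.8 CPM with Cre, a log2 fold change of -0.44 (standard error 0.11, edgeR adjusted p = 0.0104). Bub3, its constant partner, was at 82.4 and 86.0 CPM with GFP and 79.0 and 83.9 CPM with Cre. These ranges overlap, and the interval of Bub3, from -0.19 to 0.09, lies above that of Bub1, from -0.66 to -0.22. Bub1b, the BubR1 subunit of the mitotic checkpoint complex, was at -0.25 (adjusted p = 0.117), Mad2l1, which captures Cdc20, at -0.20 (adjusted p = 0.247), and the kinase gene Ttk at -0.17 (adjusted p = 0.502). Per kilobase of the longest annotated transcript Bub3 was the most abundant of the 5, at 20.6 CPM, followed by Bub1b (7.56) and Bub1 (5.94). The order depends on that length. It is 7557 bases for Mad2l1, which had 21.5 CPM before and 2.84 CPM after division by length.

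In the chromosomal passenger complex, which corrects wrong attachments and steers cytokinesis, the kinase gene fell (background 3.22%) and its partners' genes did not pass. Aurkb had 14.7 and 16.1 CPM with GFP and 11.4 and 11.5 CPM with Cre, a log2 fold change of -0.42 (standard error 0.12, edgeR adjusted p = 0.0283). Incenp, the scaffold, had 50.8 and 50.8 CPM with GFP and 46.4 and 44.1 CPM with Cre, a value of -0.17 (adjusted p = 0.197). Birc5, which encodes survivin, was at -0.22 (adjusted p = 0.169) and Cdca8, which encodes borealin, at -0.11 (adjusted p = 0.552). In all 4 genes the Cre libraries lay below the GFP libraries, as in 25.5% of all tested genes. The 95% interval of Aurkb, from -0.67 to -0.18, overlaps those of the other 3.

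**Figure D3:**
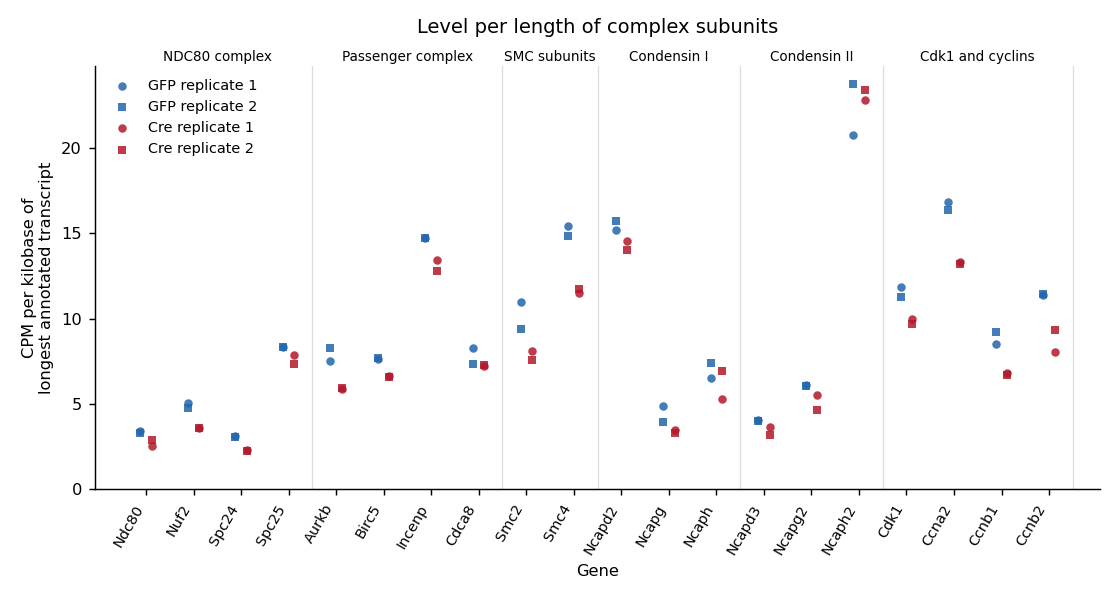
Level of complex subunits in each library, in CPM per kilobase of the longest annotated transcript; blue marks GFP and red Cre, circles replicate 1 and squares replicate 2. Ncaph and Ncaph2 overlap between groups, and all other genes drawn lie lower in both Cre libraries, as do 25.5% of all tested genes.

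Of Cdk1, its cyclins and the Cdc25 phosphatases, the 3 cyclin genes fell (background 3.22%). Ccna2, the cyclin of S phase and early mitosis, had 49.9 and 48.5 CPM with GFP and 39.4 and 39.0 CPM with Cre, a log2 fold change of -0.33 (standard error 0.08, edgeR adjusted p = 0.00767). Ccnb1 had 21.2 and 22.9 CPM with GFP and 16.9 and 16.7 CPM with Cre, and Ccnb2 had 17.4 and 17.5 against 12.3 and 14.3 CPM. Both cyclin B genes fell by 0.39 on the log2 scale, with groups that do not overlap. Cdk1 itself, the kinase they activate, had 51.9 and 49.3 CPM with GFP and 43.6 and 42.4 CPM with Cre, and its value was -0.24 (adjusted p = 0.0594). The phosphatase gene Cdc25b was at 12.7 and 12.9 CPM with GFP and 11.3 and 13.3 CPM with Cre, with overlapping groups and an interval from -0.31 to 0.20. Cdc25c was at -0.30 (adjusted p = 0.347). Exons of Exosc9 on the opposite strand lie over 12.5% of the exon bases of Ccna2, and 12.7% of those of Cdc25c lie over Gm3550, so these counts are uncertain in a library kit that keeps no strand.

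Other mitotic kinases fell in 3 of 5 cases (background 3.22%). Nek2, which helps centrosomes part, had 20.9 and 19.2 CPM with GFP and 13.9 and 14.4 CPM with Cre, a log2 fold change of -0.50 (standard error 0.11, edgeR adjusted p = 0.00336). Plk1, the polo kinase of mitotic entry and exit, had 33.3 and 34.9 CPM with GFP and 27.1 and 28.7 CPM with Cre (-0.29). Melk, a kinase gene much studied in dividing tumour cells, had 15.6 and 14.8 against 12.2 and 11.1 CPM (-0.39). In all 3 the Cre libraries lie below the GFP libraries, as in 25.5% of all tested genes. Plk1 (edgeR adjusted p = 0.0411) and Melk (edgeR adjusted p = 0.0473) lie close to the threshold. Aurka, which builds spindle poles, was at -0.23 (adjusted p = 0.116), and Plk4, the kinase of centriole duplication, at -0.20 (adjusted p = 0.310). The table also lists Plk-ps1, a polo-like kinase pseudogene, with 25 to 35 counts beside 392 to 437 for Plk1.

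Of the genes that act at anaphase, the activator gene Cdc20 fell (background 3.22%) and the other 4 did not pass. Cdc20 had 44.3 and 44.8 CPM with GFP and 36.4 and 38.1 CPM with Cre, a log2 fold change of -0.26 (standard error 0.08, edgeR adjusted p = 0.0446). Pttg1, which encodes securin, the inhibitor that keeps separase silent, had 16.9 and 16.4 CPM with GFP and 17.4 and 15.96 CPM with Cre. Its Cre libraries enclose its GFP libraries, and the 95% interval of its fold change, from -0.22 to 0.23, overlaps that of Cdc20, from -0.42 to -0.09. Espl1, the gene of separase, was at -0.22 (adjusted p = 0.183), and Sgol1, whose product shields centromeric cohesin, at -0.32 (adjusted p = 0.169). Ube2c, the ubiquitin-conjugating enzyme of the anaphase-promoting complex, was at -0.20 (adjusted p = 0.232), with 22.8% of its exon bases over Tnnc2 on the opposite strand.

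Chromosome structure genes fell in 4 of 7 cases (background 3.22%), including both SMC subunits that form the arms of condensin. Smc4 had 66.4 and 64.0 CPM with GFP and 49.7 and 50.5 CPM with Cre, a log2 fold change of -0.38 (standard error 0.07, edgeR adjusted p = 0.000931). Smc2 had 59.4 and 50.6 CPM with GFP and 43.7 and 40.8 CPM with Cre, also -0.38, with a wider gap between its GFP libraries. Of the 3 subunits particular to condensin I, Ncapg was at -0.38 (adjusted p = 0.0512), Ncaph at -0.18 (adjusted p = 0.402) and Ncapd2 at -0.11 (adjusted p = 0.399). Without Cre replicate 1 Ncaph was at -0.0029, and without Cre replicate 2 at -0.39, while Ncapg was at -0.21 without GFP replicate 1. Ncapg overlaps exons of Lcorl on the opposite strand over 13.4% of its exon bases. The intervals of Smc4, from -0.53 to -0.23, and Ncapd2, from -0.25 to 0.03, overlap slightly. The condensin II subunits, which are not among the 55, were at -0.25 for Ncapd3, -0.25 for Ncapg2 and 0.06 for Ncaph2, and none passed.

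Top2a, the topoisomerase that untangles sister chromatids, was the most abundant of the 55 genes per kilobase, at 23.9 CPM. It had 132 and 145 CPM with GFP and 117 and 105 CPM with Cre, a log2 fold change of -0.32 (standard error 0.07, edgeR adjusted p = 0.00298). Its replicates differ by about as much within each group, and the groups do not overlap. Mki67, which encodes the proliferation antigen Ki-67 that coats mitotic chromosomes, had 119 and 132 CPM with GFP and 114 and 95.8 CPM with Cre (-0.26, adjusted p = 0.0305). For Mki67 the lower GFP library and the higher Cre library lie close together, and the value was -0.18 without GFP replicate 2 and -0.14 without Cre replicate 2. Cdc20 (22.8 CPM per kilobase) and Bub3 (20.6) follow Top2a in the order of levels, and their ranges over the libraries overlap with that of Top2a, from 20.0 to 27.8. At the other end Cenpl (1.24), Aspm (2.01) and Cenpk (2.08) had the lowest levels per kilobase. This order too rests on the longest annotated transcript, 4883 bases for Cenpl.

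Spindle assembly genes fell in 3 of 4 cases (background 3.22%). Aspm, a spindle pole protein gene whose loss in people causes microcephaly, had 25.1 and 23.8 CPM with GFP and 17.2 and 13.3 CPM with Cre. Its log2 fold change of -0.68 (standard error 0.11, edgeR adjusted p = 0.000152) was the lowest of the 55. Hmmr, which encodes a spindle and hyaluronan-binding protein, had 32.2 and 30.8 CPM with GFP and 21.2 and 24.0 CPM with Cre (-0.48). In both genes the Cre libraries lie well below the GFP libraries. Tpx2, the activator of Aurora A on the spindle, had 85.01 and 91.9 against 76.5 and 75.1 CPM (-0.22, adjusted p = 0.0446), while Nusap1 was at -0.17 (adjusted p = 0.493).

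Cytokinesis genes fell in 3 of 4 cases (background 3.22%) and held the smallest adjusted p of the set. Anln, which encodes anillin, the scaffold of the contractile ring, lies on chromosome 9 from 22331214 to 22389211. It had 96.9 and 104 CPM with GFP and 71.9 and 65.9 CPM with Cre, a log2 fold change of -0.55 (standard error 0.07, edgeR adjusted p = 3.50e-06). Prc1, which bundles the microtubules of the central spindle, had 66.3 and 67.7 CPM with GFP and 50.03 and 51.4 CPM with Cre. The SD between replicates was 0.997 CPM with GFP and 0.979 CPM with Cre, small beside the gap between the groups, and the log2 fold change was -0.40 (edgeR adjusted p = 0.000518). Exons of Rccd1 on the opposite strand cover 11.1% of the exon bases of Prc1. Ect2, which starts furrow formation at the cell equator, was at -0.35 (adjusted p = 0.0217), and its partner Racgap1 at -0.24 (adjusted p = 0.0693).

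Foxm1, the transcription factor that acts on many of these genes in G2, had 40.2 and 50.2 CPM with GFP and 37.0 and 35.5 CPM with Cre. GFP replicate 2 stands above the other libraries. The log2 fold change was -0.31 (standard error 0.09, edgeR adjusted p = 0.0294) in all libraries and -0.15 without GFP replicate 2.

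**Figure D4:**
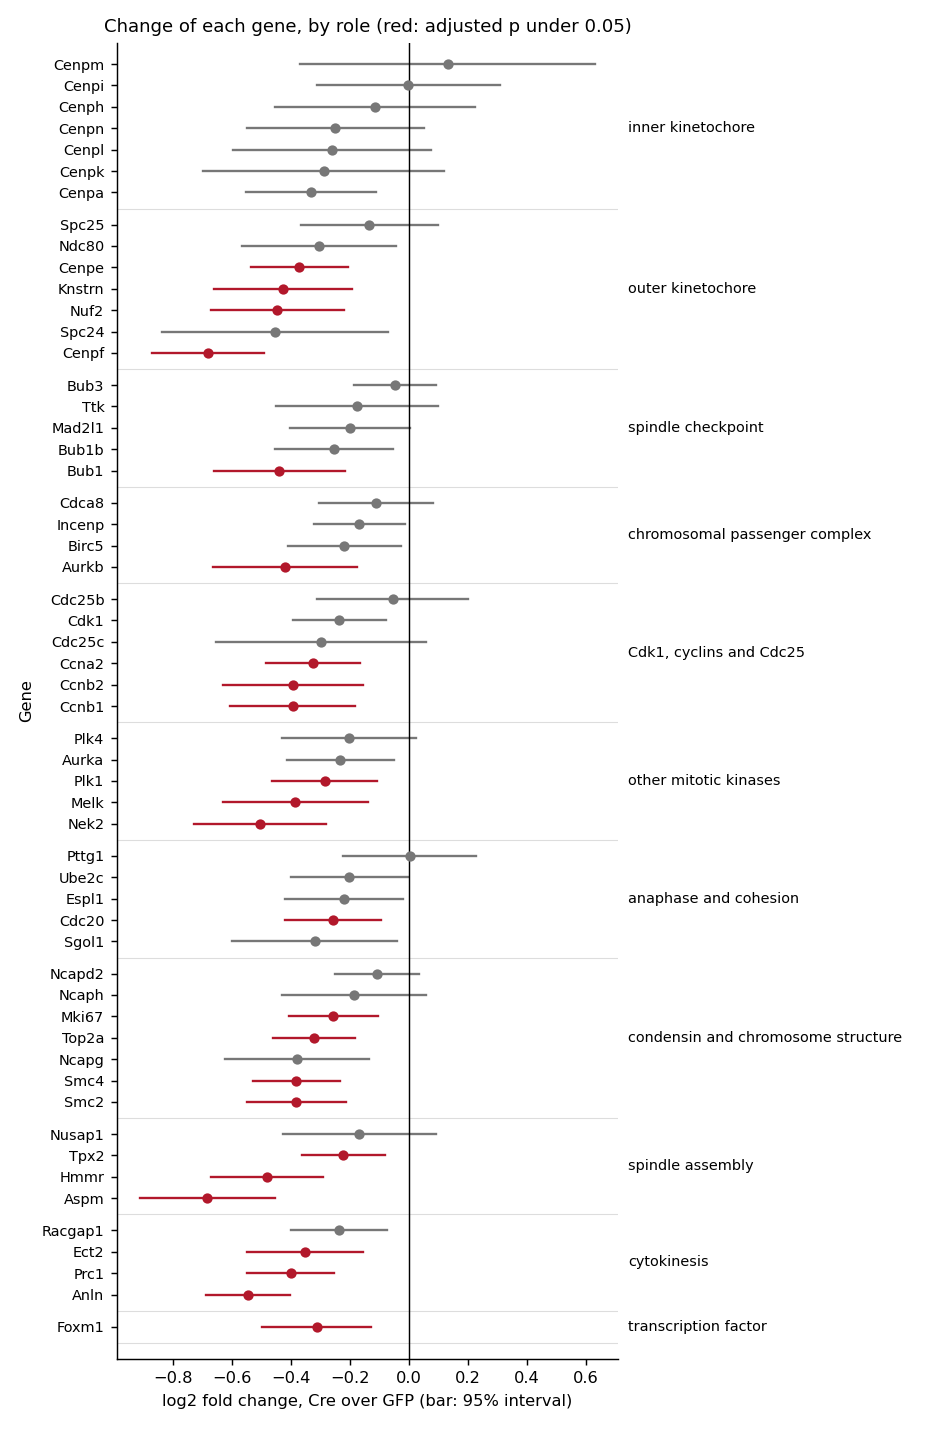
Log2 fold change of Cre over GFP for each of the 55 genes with its 95% interval, grouped by role; red marks an adjusted p under 0.05. The 31 genes in grey include 13 whose interval lies below 0 and 18 whose interval holds 0.

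The 31 genes that did not pass had log2 fold changes from -0.45 to 0.13, and 29 were below 0. Their median level was 16.5 CPM, against 29.8 CPM for the 24 that fell. Counts of the 55 genes ranged from 29 to 1732 per library. Whether the roles differ from each other in their change was not tested. Leaving out 1 library moved the log2 fold change by over 1.5 times in 19 of these 31 genes, and in 2 of the 24 that fell, Mki67 and Foxm1. This contrast does not measure how stable the calls are. The calls were made on the same libraries, and a ratio grows large for values near 0.

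Other genes of the same pathway were listed by function. As background, 3.22% of all tested genes were called lower and 3.74% higher. Of 28 other genes of mitotic entry and exit 10 fell and 0 rose, with a median log2 fold change of -0.29. Among them were the microtubule-binding Ckap2 (-0.70) and Ckap2l (-0.36), the abscission factor Cep55 (-0.62) and Arhgap11a (-0.37). Of 28 other kinetochore and centromere genes 3 fell and 1 rose, with a median of -0.23. Kntc1 (-0.51), of the complex that recruits checkpoint proteins, Casc5 (-0.51), whose product Knl1 docks Bub1, and Oip5 (-0.92), which helps load Cenpa, fell. Zwint, which bridges the outer kinetochore to that complex, rose from a mean of 168 CPM to 196 CPM (0.22, edgeR adjusted p = 0.0275).

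Few genes of 5 further lists passed (background 3.22% lower and 3.74% higher). Of 15 genes of the anaphase-promoting complex and its regulators 0 fell and Anapc2 rose (0.22), with a median of -0.014 that was 0.016 with library size alone. Of 17 genes of condensin II, cohesin and Smc5/6 none passed edgeR's test, with a median of -0.16. Of 22 S-phase genes 1, the polymerase gene Pole (-0.40), fell, and the median was -0.11. Among 20 DREAM and E2F regulators E2f7 fell (-0.58) and E2f6 rose (0.25), with a median of -0.068 and values from -0.58 to 0.59. For 15 G1 cyclins, Cdk genes and Cdk inhibitors 0 passed, with a median of -0.029 (0.0031 with library size alone). Their values ran from -0.32 to 0.94. The highest value of each of these lists did not pass. The counts of these lists lose their calls without either GFP library, as the 55 genes do. In the list of condensin II, cohesin and Smc5/6 10 of 17 genes were lower and 0 higher at an unadjusted p under 0.05, where 10.4% of all tested genes were lower and 10.6% higher. In the G1 list 4 of 15 were lower and 2 higher, and in the list of the anaphase-promoting complex 0 were lower and 2 higher. In the S-phase list 5 of 22 were lower and 0 higher, and in the DREAM and E2F list 3 of 20 were lower and 2 higher. DESeq2 called 0 genes in these 5 lists (background 1.2% lower and 2.35% higher).

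**Figure D5:**
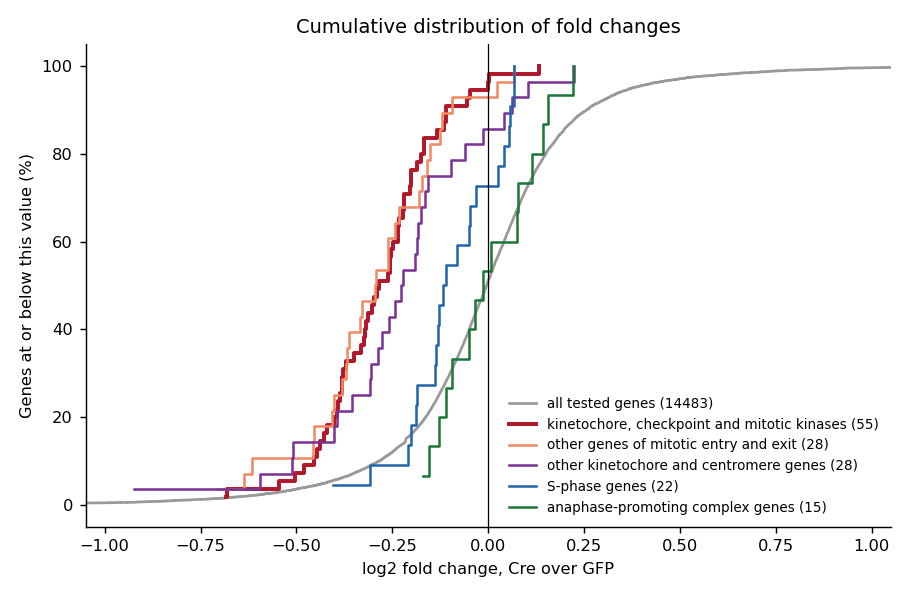
Share of genes at or below each log2 fold change of Cre over GFP, for the 55 genes (red), 4 other lists and all 14483 tested genes (grey). The curve of the 55 genes crosses 50% at -0.29 and that of other genes of mitotic entry and exit at -0.29, while S-phase genes cross at -0.11 and the anaphase-promoting complex at -0.014.

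Transcript length moved with the fold change across the whole table. Over 13830 tested genes with a known length, the Spearman correlation between length and log2 fold change was -0.22, a description across genes that share 4 libraries. The median of all tested genes went from 0.063 below 2000 bases to -0.083 at 6000 bases and above. In each length class the median of the listed genes was lower than that of all genes: -0.23 below 2000 bases (9 genes), -0.29 from 2000 to 4000 (27 genes), -0.31 from 4000 to 6000 (13 genes) and -0.31 above (6 genes). The corresponding medians of all tested genes in the inner classes were 0.0066 and -0.028.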

How the data were processed

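RNA of 4 libraries was sequenced with a TruSeq RNA kit, per the labels' protocols, a kit that keeps no strand. The deposited values are raw read counts per gene, which the authors made with HISAT2 and GRCm38, per the submitters' processing notes. No source used here gives the counting program, its annotation or its strand setting. Each column was matched to its sample by group and number, and 0 columns were left unused.

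From the counts, edgeR 4.0.16 (R 4.3.3) was run with TMM scaling, filterByExpr (minimum count 10, minimum total 15) and the quasi-likelihood F-test of Cre against GFP, with Benjamini-Hochberg adjustment over 14483 genes and a threshold of 0.05. Standard errors are the fold change over the root of F, and 95% intervals use the t distribution. The common biological coefficient of variation was 4.73%. Between replicates the median squared deviation was 2.32 times that of counting noise for GFP (9939 genes above a count cut). For Cre it was 1.78 times (10204 genes), and 3 counts correspond to 0.207 to 0.255 CPM. CPM per kilobase divides by the longest GENCODE M21 transcript. The level of a gene expressed mainly as a shorter transcript is thus given too low, and which transcripts were expressed was not tested. Motifs were read from RefSeq promoter windows. Exon overlaps come from the same GENCODE annotation. Alternatives were DESeq2 1.42.0, limma-voom (limma 3.58.1), other scalings and filters, a replicate block and leaving out each library.

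The members and lists were chosen with earlier results of these data known. All 55 members are named, and of each other list up to 4 called genes with the smallest adjusted p and at least 1 CPM, with the most abundant marker. The condensin II subunits, the counts of pseudogene rows and the 6 promoters were added after their values were seen.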

Additional observations from a re-analysis of the deposited data

How the results depend on the processing

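All 24 genes called lower kept their direction under every alternative, and 0 of the 55 were called higher under any. The number called lower was 24 with limma-voom (background 3.31%), with median-of-ratios factors (3.19%) and without ribosomal and abundant noncoding RNA (3.17%). It was 25 with a filter of 1 CPM (3.64%), 28 with robust dispersion (4.2%) and 19 with the replicate block (2.68%). It was 11 at an adjusted p of 0.01 (background 1.52%), 9 with library size alone (1.26%) and 7 with DESeq2 (1.2%). With no low-count filter it was 0, in a fit that called 0.0471% of all tested genes lower. In that fit 35 of the 55 were lower at an unadjusted p under 0.05 (background 4.83%). Fewer of the 55 genes were called lower in each fit with 1 library left out, and so were fewer of all tested genes. These fits take the spread of the lone library from that of the opposite group. The median log2 fold change was -0.25 with library size alone, which moves the median of all genes by 0.03, and -0.31 to -0.28 with a library left out. Of the 7 other pathway lists 15 genes were called lower, and 5 with library size alone, 0 with no low-count filter, 2 with DESeq2 and 0 to 8 with a library left out. The 3 called higher (background 3.74%) became 0 with library size alone (2.4%), no low-count filter (0.0707%) and the replicate block (3.04%). With DESeq2 1 remained (2.35%), and these calls were also lost with any library left out. Setd2 ranged from -1.71 to -1.48 with a library left out. The cause of these changes was not tested.

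The sign of genes near 0 changed. Cenpi was at 0.0008 with median-of-ratios factors, 0.0286 with library size alone, 0.0074 with no low-count filter, 0.0040 with a filter of 1 CPM, 0.010 with the replicate block, 0.0252 with limma-voom and 0.0119 with DESeq2. With a library left out it ranged from -0.2544 to 0.3400, Cenph from -0.2372 to 0.0342, Cenpm from -0.0403 to 0.3083, Bub3 from -0.0909 to 0.0015, Cdc25b from -0.1757 to 0.0634 and Pttg1 from -0.0526 to 0.0627. The replicate numbers showed no pairing: the correlation of deviations between libraries of the same number was -0.0089. Depth limits the 7 genes with under 100 counts in a library.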
